A study of Mus musculus with 43 samples.

Results

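The heat shock and endoplasmic reticulum (ER) stress genes, 10 of the 55416 gene rows that each count file lists, were followed through all 43 libraries of purified mouse glia. They were chosen by name, Hspa1a, Hspa1b, Dnajb1, Hsp90aa1, Hspa8, Hspa5, Hsp90b1, Atf4, Ddit3 and Xbp1, and the rule used no measured value, although earlier results of these data were known when it was made. Hspa1a, Hspa1b, Dnajb1, Hsp90aa1 and Hspa8 encode chaperones of the cytosol, which hold and refold proteins. Hspa5 and Hsp90b1 encode chaperones inside the ER, and Atf4, Ddit3 and Xbp1 encode transcription factors of the ER and integrated stress responses. All 10 passed the filter on low counts in each comparison below.

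When unfolded proteins pile up in the cytosol, the factor HSF1 binds heat shock elements in promoters and raises chaperone transcription within minutes. When they pile up in the ER, 3 sensors respond, which are IRE1 (gene Ern1), PERK (gene Eif2ak3) and ATF6. IRE1 splices Xbp1 mRNA, PERK slows translation while ATF4 protein and then its target Ddit3 (also called CHOP) rise, and ATF6 raises ER chaperones such as Hspa5 (BiP). Gene counts do not separate spliced from unspliced Xbp1, and ATF4 protein is set largely by translation, so these counts show mRNA only.

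The cells came from the cerebral cortex of mice aged 3 months. Rag2-/- mice lack the recombinase that assembles antigen receptors and so have no mature T or B lymphocytes, and each was matched with an immunocompetent littermate, though the fits below compare the genotypes as groups, with no pair term. The controls of pairs 1, 2, 3 and 5 were labelled Rag2+/- and those of pairs 4 and 6 Rag2+/+. Astrocytes and microglia each came from 6 control and 6 Rag2-/- mice, oligodendrocyte precursor cells (OPCs) from 6 and 5, and oligodendrocytes from 4 and 4, all of the latter from pairs 1, 3, 5 and 6. Mice of pairs 1, 3 and 4 were male and those of pairs 2 and 5 female, while pair 6 joined a male control to a female Rag2-/- mouse. The deletion was present in all cells of the body, so an effect on glia through lymphocytes and a direct effect cannot be told apart. Each library of a cell type came from a different mouse, and the replicate spread therefore includes differences between mice.

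The tissue was digested with papain, and the suspension passed over antibody-coated dishes that took up microglia (CD45) first, then OPCs (PDGFRα), then oligodendrocytes (GalC) and then astrocytes (HepaCAM). All libraries of a cell type shared a sequencing lane, by the study's methods. Cell type therefore went together with the place in that order and with the lane, and their effects on stress genes cannot be told apart. Libraries held 6499417 to 23118497 read pairs counted on genes, with a median of 10447042. Rag2 itself checked little, since it had 0 counts in 40 of 43 libraries and at most 4. Iftap, whose gene overlaps Rag2, was counted 14 to 208 times in each control library and no more than 2 times in each Rag2-/- library. Every library therefore matched its label as control or Rag2-/-, while Iftap did not check sex or separate Rag2+/- from Rag2+/+. The marker list of each labelled cell type was highest in that cell type. Mitochondrially encoded genes took 45.8% to 60.1% of the counts in oligodendrocytes, 22.5% to 45.1% in astrocytes, 22.4% to 36.7% in OPCs and 6.75% to 11.7% in microglia. Levels below are CPM, in which the gene counts of every library are scaled to the same total, and this share lowers the CPM of every other gene, most in oligodendrocytes. Markers were also seen outside their own cell type. The 10 oligodendrocyte markers summed to 3914 to 5876 CPM in astrocytes and 16237 to 23442 CPM in oligodendrocytes. The 10 astrocyte markers summed to 3030 to 8392 CPM in OPCs and 17220 to 22355 CPM in astrocytes. The part of such RNA in the differences between these cell types was not tested. In these bulk libraries, fewer cells that use a gene and less of its RNA per cell cannot be told apart.

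Promoters are shown first, for the members with a match to a stress element near the start site. Hsp90aa1, Hspa8, Atf4 and Xbp1 had no match to any motif searched. Sequences were read from the GRCm39 genome at the GENCODE M39 start sites and are written 5′ to 3′ on the strand of the gene, with position -1 next to the start site. Motifs, 7 in all, were searched on both strands in the window from 250 bases before to 50 after the start, in the members and in 21770 promoters. Capitals mark a match to GAANNTTC, a pair of heat shock element units that 7.41% of all promoters held. It lay at -104 in Hspa1a and Hspa1b and at +29 in Dnajb1. Hspa1a and Hspa1b are neighbouring genes on chromosome 17, and the 250 bases before their starts were identical at 247 positions and differed at 3.
Hspa1a, chr17:35191133-35191382, minus strand, -250 to -1: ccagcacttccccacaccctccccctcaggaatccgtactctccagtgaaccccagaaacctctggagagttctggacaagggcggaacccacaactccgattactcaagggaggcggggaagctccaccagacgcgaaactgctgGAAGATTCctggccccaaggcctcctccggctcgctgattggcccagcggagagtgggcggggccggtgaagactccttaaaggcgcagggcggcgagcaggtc
Hspa1b, chr17:35178215-35178464, minus strand, -250 to -1: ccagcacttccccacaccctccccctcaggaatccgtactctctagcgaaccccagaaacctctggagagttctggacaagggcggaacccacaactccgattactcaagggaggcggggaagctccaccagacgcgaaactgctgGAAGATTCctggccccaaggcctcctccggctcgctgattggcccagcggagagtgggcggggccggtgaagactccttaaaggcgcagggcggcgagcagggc
Dnajb1, chr8:84334840-84334867, plus strand, +19 to +46: gggaggggcgGAAGGTTCtggagggctg

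In the ER chaperone promoters, capitals mark the ER stress element, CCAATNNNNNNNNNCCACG, at which ATF6 binds together with NF-Y. It was held by 0.124% of all promoters. Hspa5 had a match at -67, and Hsp90b1 had a match at -142 and another at -37 on the opposite strand. In Ddit3, capitals mark TGATGNAA on the opposite strand at -199, the kind of element that C/EBP and ATF factors share, which 3.85% of all promoters held.
Hspa5, chr2:34661994-34662103, plus strand, -110 to -1: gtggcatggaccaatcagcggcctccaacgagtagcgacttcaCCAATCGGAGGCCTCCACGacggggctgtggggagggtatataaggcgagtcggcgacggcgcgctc
Hsp90b1, chr10:86541379-86541538, minus strand, -160 to -1: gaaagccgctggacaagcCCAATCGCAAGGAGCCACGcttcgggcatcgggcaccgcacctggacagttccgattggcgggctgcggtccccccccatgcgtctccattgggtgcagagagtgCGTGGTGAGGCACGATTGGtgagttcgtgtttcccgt
Ddit3, chr10:127126340-127126389, plus strand: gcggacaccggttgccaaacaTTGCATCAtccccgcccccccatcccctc
The letters of GAANNTTCNNGAA (0.478% of promoters), TTCNNGAA (7.98%), ATTGGNCCACG (0.0689%) and TGACGTGG (0.721%) were found in no member's window. GAANNTTC is contained in the first of these.

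Some of the members share reads with other genes, which sets what their counts can show. Of the 50-base windows of its main transcript, Hspa1a shared 60.3% exactly with another place in the genome, and Hspa1b shared 62.3%, all of them with Hspa1a. Hspa8 shared 75.7% and Hsp90aa1 67.9%, with processed copies elsewhere. HTSeq by default leaves out reads that fit several places equally well, and with that setting the counts of these 4 genes come mainly from their uncopied parts. Hspa5, Hsp90b1 and Dnajb1 shared at most 1.69%, and Ddit3, Atf4 and Xbp1 none. Exons of Mars1 lie opposite 79.5% of the main Ddit3 transcript and those of Gm4189 opposite 20.5%, and Rabepk exons lie opposite 44.5% of Hspa5. The study's methods name no step that keeps the strand of the RNA, and whether counting used strand is not given. Reads of Ddit3 and of its antisense partners may therefore not be told apart.

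**Figure D1:**
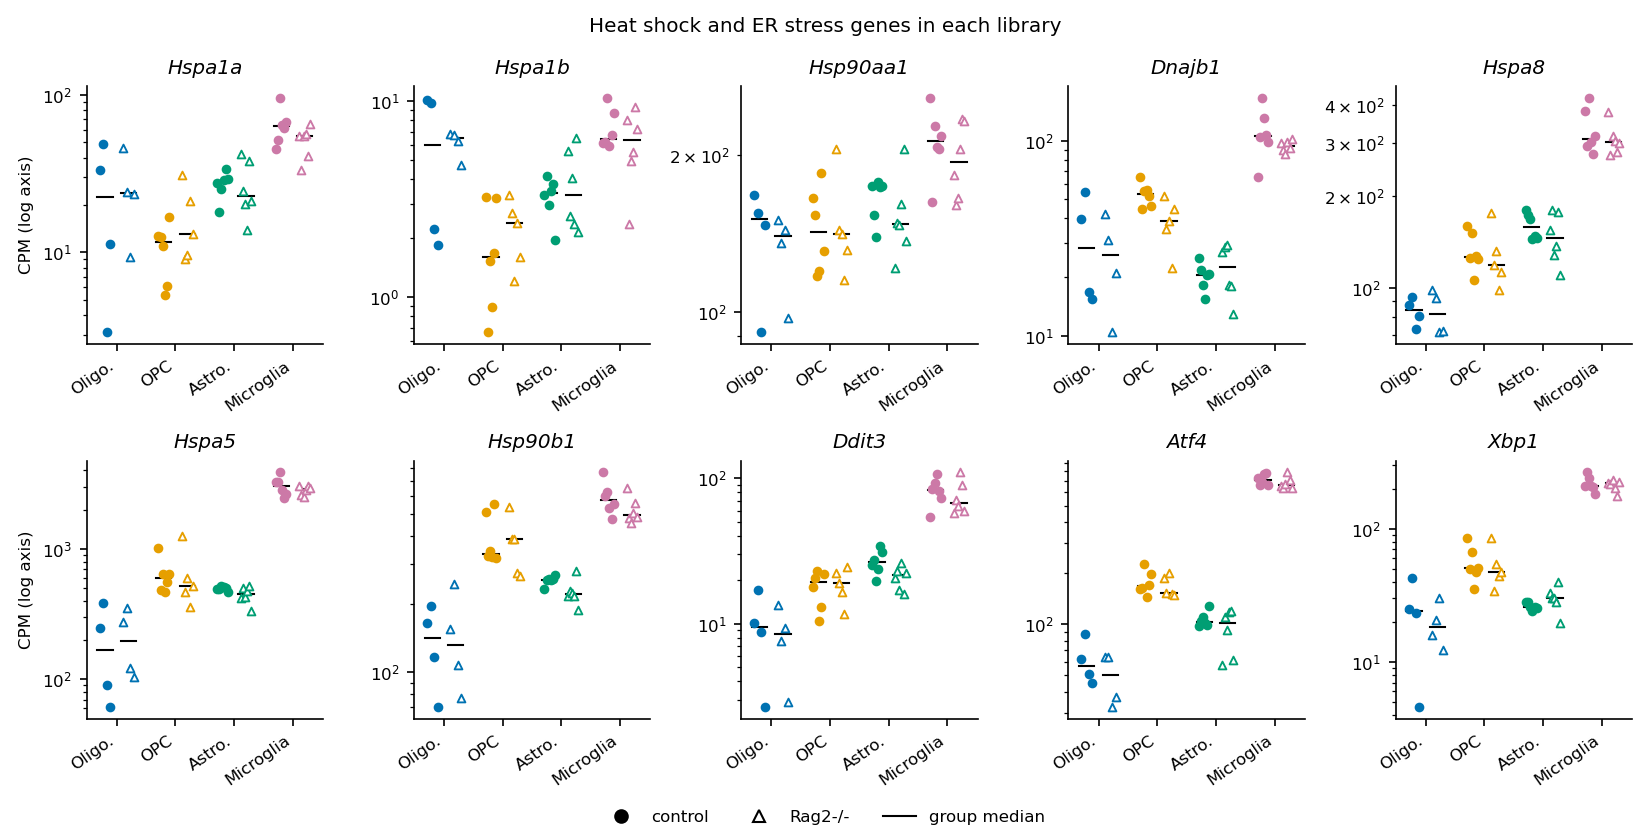
Level of each gene in each library, as CPM on a log axis, by cell type and genotype. Filled circles are control libraries, open triangles Rag2-/- libraries and bars group medians; microglia sit highest for Hspa5, Atf4, Xbp1, Ddit3 and Hspa8 with no overlap, and the genotypes overlap in every panel.

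The first question was how high each gene stood in the 4 kinds of glia. Hspa5 (chr2:34661982-34668880), the main chaperone of the ER, was the most abundant member in microglia. It reached 2466, 2882 and 3861 CPM as the lowest, median and highest of 12 microglia libraries. In 11 OPC libraries it reached 359, 559.9 and 1264 CPM, and in 12 astrocyte libraries 336, 494 and 521 CPM. Oligodendrocytes stood lowest, at 61.6, 185 and 383 CPM over 8 libraries. No library of another cell type came near the lowest microglia library.

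Hsp90b1 (chr10:86526073-86541446), which encodes GRP94 and folds secreted and membrane proteins beside BiP, was spread less. It had 457, 544 and 766 CPM in microglia and 266, 343 and 555 CPM in OPCs, and these ranges overlapped. In astrocytes it had 188, 245 and 280.4 CPM, and in oligodendrocytes 70.4, 136 and 245 CPM. Microglia and astrocyte libraries did not overlap.

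Atf4 (chr15:80139372-80141745), the effector of the integrated stress response, had 636, 679.9 and 787 CPM in microglia. OPCs had 146, 164 and 227 CPM, astrocytes 57.4, 103 and 127 CPM and oligodendrocytes 32.6, 56.9 and 87.9 CPM. Within microglia the highest library was little above the lowest, and no other library came near them.

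Xbp1 (chr11:5470606-5483027), the factor that IRE1 activates by splicing, had 177, 213 and 266 CPM in microglia. It had 34.3, 49.98 and 85.8 CPM in OPCs, 19.6, 28.2 and 40.0 CPM in astrocytes and 4.60, 21.9 and 43.03 CPM in oligodendrocytes. The microglia libraries again stood apart from all others.

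Ddit3 (chr10:127124268-127132163), which encodes the factor CHOP of late ER stress, had 54.0, 77.4 and 109.7 CPM in microglia. Astrocytes had 15.9, 23.3 and 34.4 CPM, OPCs 10.4, 18.9 and 24.4 CPM and oligodendrocytes 2.68, 9.08 and 16.9 CPM. Mars1, the gene opposite Ddit3, had median levels of 43.7 CPM in microglia, 44.2 in OPCs, 34.4 in astrocytes and 11.4 in oligodendrocytes. In CPM its libraries of oligodendrocytes and microglia did not overlap. Scaled by edgeR's TMM factors for library composition they did, with a highest of 24.2 in oligodendrocytes and a lowest of 22.9 in microglia. Rabepk, opposite Hspa5, had medians of 36.2 CPM in microglia, 14.9 in astrocytes, 13.9 in OPCs and 5.37 in oligodendrocytes. The part of either in the counts of its neighbour was not tested.

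Among the cytosolic chaperones, Hspa1a (chr17:35188166-35191132) and Hspa1b (chr17:35175412-35178214) encode the inducible HSP70, which is low in unstressed tissue. Hspa1a had 33.5, 55.7 and 96.1 CPM in microglia, 13.9, 26.4 and 42.2 in astrocytes and 5.36, 12.5 and 30.9 in OPCs. In oligodendrocytes it ran from 3.11 to 48.5 CPM with a median of 23.8, the widest relative spread of the 4 cell types. Hspa1b was far lower, at 2.37, 6.44 and 10.4 CPM in microglia, 1.96, 3.40 and 6.50 in astrocytes, 0.665, 1.67 and 3.33 in OPCs and 1.84, 6.49 and 10.2 in oligodendrocytes. The ranges of microglia and oligodendrocytes overlapped for both genes.

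Dnajb1 (chr8:84334811-84339820), the HSP40 that hands clients to HSP70, had 64.9, 98.9 and 166 CPM in microglia and 22.3, 46.2 and 65.2 CPM in OPCs. It had 12.9, 20.6 and 29.2 CPM in astrocytes and 10.4, 25.98 and 54.5 CPM in oligodendrocytes. Hspa8 (chr9:40711630-40731039), the HSP70 that cells use at all times, had 272, 303 and 422 CPM in microglia, 110.3, 151 and 181 in astrocytes, 98.0, 125 and 176 in OPCs and 71.3, 84.1 and 98.1 in oligodendrocytes. Hsp90aa1 (chr12:110656842-110669166), the inducible cytosolic HSP90, differed least. It had 160.2, 206 and 257 CPM in microglia, 122, 157 and 205 in astrocytes, 115, 141 and 205 in OPCs and 91.7, 145 and 167 in oligodendrocytes, with overlap between all of them.

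Between genes, levels were compared per kilobase of the main transcript, as mean TMM-scaled CPM (TMM is edgeR's factor for library composition). Hspa5 came first in microglia at 512 per kilobase, followed by Atf4 at 346 and Hsp90b1 at 171. In OPCs Hsp90b1 at 106 and Hspa5 at 100.6 led, in astrocytes Hspa5 at 98.8 and Hsp90b1 at 88.1, and in oligodendrocytes Hsp90b1 at 79.2 and Hspa5 at 63.9. Hspa1b was last of 10 in every cell type, at 0.570 to 3.43 per kilobase. Where only the uncopied windows were used as the length, Hspa8 moved to first place in OPCs, astrocytes and oligodendrocytes, at 179, 280.2 and 239 per uncopied kilobase, and to second place in microglia, at 486. The order of genes with copies therefore depended on how the copied parts were treated.

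Cell types were compared in a single edgeR quasi-likelihood fit of all 43 libraries with sex as a term and TMM scaling, and a gene was called at a Benjamini-Hochberg adjusted p under 0.05 over 21368 genes. The 3 comparisons with microglia share the microglia libraries and are not independent of each other. Against OPCs, all 10 members were higher in microglia, where the background was 30.8% of genes called higher in microglia and 38.7% called higher in OPCs. Against astrocytes 9 members were higher in microglia and none lower, beside 33.5% and 36.5% of all genes. Against oligodendrocytes 7 were higher in microglia and 2 lower, beside 34.8% and 33.2%. Over the members, the median log2 difference of OPCs from microglia was -1.998, of astrocytes -1.20 and of oligodendrocytes -1.08, while over all genes it was 0.18, 0.09 and -0.09.

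Among the members, the fold was largest for Hspa5 against OPCs and oligodendrocytes and for Xbp1 against astrocytes. Hspa5 was 5.23-fold higher in microglia than in OPCs (log2 difference of OPCs from microglia -2.39, 95% interval -2.75 to -2.02, edgeR adjusted p = 2.63e-15). It was 5.19-fold higher than in astrocytes (adjusted p = 7.27e-16) and 8.44-fold higher than in oligodendrocytes (adjusted p = 1.55e-16). Atf4 was 4.44-fold higher than in OPCs, 5.87-fold higher than in astrocytes and 6.91-fold higher than in oligodendrocytes. For Xbp1 these folds were 4.37, 6.38 and 5.41, and for Ddit3 4.63, 2.73 and 4.76. At least 4-fold higher in microglia were 5 members against OPCs (these 4 and Hspa1a), 3 against astrocytes (Hspa5, Atf4 and Xbp1) and 4 against oligodendrocytes, beside 13.5%, 15.3% and 17.4% of all genes. The second ER chaperone, Hsp90b1, differed far less, by 1.62-fold, 1.94-fold and 2.19-fold.

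The cytosolic chaperones differed in their order. Dnajb1 was higher in microglia by 2.48-fold over OPCs, 3.99-fold over astrocytes and 1.99-fold over oligodendrocytes, and Hspa8 by 2.72-fold, 1.73-fold and 2.04-fold. Hspa1a was higher in microglia by 4.80-fold over OPCs and 1.73-fold over astrocytes. Its difference from oligodendrocytes did not pass the test (log2 difference of oligodendrocytes from microglia -0.41, interval -0.97 to 0.15), but did with no filter (-0.49) and with library size alone (-1.30). Hspa1b was 1.62-fold higher in oligodendrocytes than in microglia (adjusted p = 0.0348), and so was Hsp90aa1, by 1.25-fold (adjusted p = 0.0116). Both of these calls were weak: Hspa1b lost its call with the mouse as a block (log2 difference 0.53, adjusted p = 0.13) and without any of pairs 1 to 4, where its log2 difference was 0.53 to 0.66. Hsp90aa1 lost its call without pair 2 (0.21). Both also lost it with controls alone (0.38 for Hspa1b and 0.22 for Hsp90aa1) and with no filter (0.62 and 0.25). Scaled by library size alone, both turned to the other side, at -0.19 for Hspa1b and -0.59 for Hsp90aa1. The call of Hspa1b between astrocytes and microglia was lost without any of pairs 3 to 6, at -0.65 to -0.49, with controls alone (-0.88), with no filter (-0.62) and with library sizes without mitochondrial genes (-0.45). Hsp90aa1 gained a call there with library size alone, as higher in microglia (log2 difference of astrocytes from microglia -0.36).

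**Figure D2:**
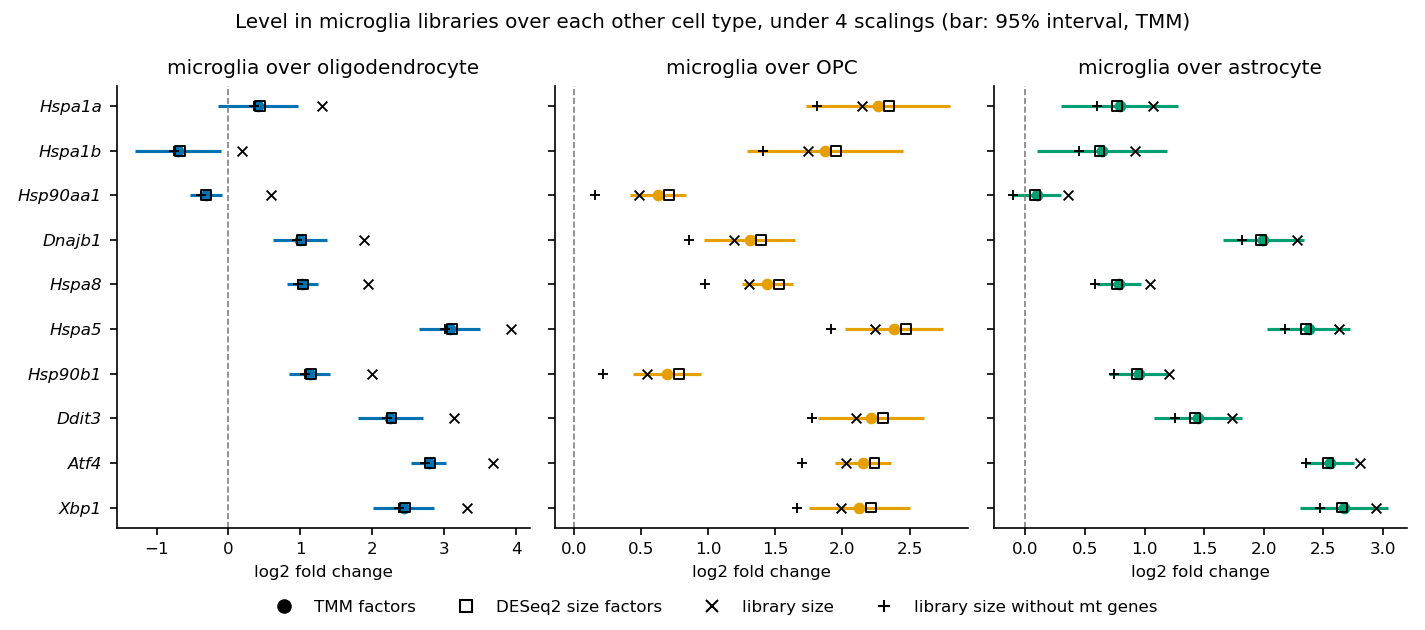
Log2 difference of microglia from each other cell type for the 10 genes, where positive values are higher in microglia. Filled circles with bars are the TMM-scaled fit with its 95% interval and the other symbols are 3 other scalings; Hspa5, Atf4, Xbp1 and Ddit3 lie to the right of 0 under each scaling, while Hspa1b and Hsp90aa1 against oligodendrocytes change side with library size alone.

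The 3 other cell types were also compared with each other. Oligodendrocytes were higher than OPCs in Hspa1b (5.93-fold, adjusted p = 8.21e-09), Hspa1a (3.62-fold), Hsp90aa1 (1.92-fold) and Hspa8 (1.33-fold), and lower in Hspa5 (1.61-fold), Atf4 (1.55-fold) and Hsp90b1 (1.35-fold). This made 4 members higher and 3 lower, beside 15.7% and 25% of all genes. Dnajb1, Xbp1 and Ddit3 did not pass, with log2 differences of 0.31 (interval -0.06 to 0.69), -0.31 (-0.71 to 0.09) and -0.04 (-0.46 to 0.39). Hsp90b1 lost its call without pair 6 (-0.33, adjusted p = 0.07) and with controls alone (-0.49, adjusted p = 0.059). Hspa8 lost its call with library sizes without mitochondrial genes (0.0027, adjusted p = 0.99). Xbp1 was called without pair 5 (-0.57) and with either scaling by library size (-1.32 and -0.71), Dnajb1 without pair 5 (0.51) and Ddit3 with library size alone (-1.03). Against astrocytes, 3 members were higher in oligodendrocytes, Hspa1b (2.53-fold), Dnajb1 (2.00-fold) and Hsp90aa1 (1.33-fold), and 3 were lower, Ddit3 (1.75-fold), Hspa5 (1.63-fold) and Hspa8 (1.18-fold), beside 25.7% and 24% of all genes. Hspa8 lost this call without pair 1 (log2 difference -0.24), without pair 3 (-0.28), with controls alone (-0.34) and with no filter (-0.34). Hsp90aa1 lost it with controls alone (0.35), with no filter (0.32) and with library sizes without mitochondrial genes (0.27), and Dnajb1 lost it with library size alone (0.39). Atf4 was called lower in oligodendrocytes by DESeq2 (-0.27), with its size factors, with either scaling by library size (-0.88 and -0.38) and without pair 1, 2 or 3 (-0.37 to -0.29). Hsp90b1 was called lower with library size alone (-0.79) and without pair 3 (-0.42), and Hspa1a (0.72) without pair 5 and Xbp1 (0.41) without pair 6 were called higher.

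Between OPCs and astrocytes, 3 members were higher in OPCs, Dnajb1 (1.61-fold), Xbp1 (1.46-fold) and Atf4 (1.32-fold), where 25.4% of all genes were called higher in OPCs. Higher in astrocytes were 5, Hspa1a (2.78-fold), Hspa1b (2.34-fold), Ddit3 (1.70-fold), Hspa8 (1.57-fold) and Hsp90aa1 (1.44-fold), where 17.1% of all genes were. The call of Xbp1 was lost without pair 1 (log2 difference 0.43) and without pair 3 (0.44), and with controls alone Xbp1 (0.60) and Atf4 (0.26) lost theirs. Scaled by library size alone, Hsp90aa1 (-0.12) and Ddit3 (-0.37) lost their calls. Hsp90b1 gained a call there (0.67), with library sizes without mitochondrial genes (0.53) and without pair 6 (0.31). Hspa5 was level between them within its error (log2 difference -0.01, interval -0.35 to 0.33), so its order was microglia, then OPCs and astrocytes together, then oligodendrocytes. The CPM ranges of microglia were apart from OPCs for 6 of the 10 members, from astrocytes for 7 and from oligodendrocytes for 7, beside 33.5%, 34% and 32.5% of all genes tested. Those of OPCs and astrocytes were apart for Atf4 alone (1 member), beside 15.6% of all genes. Those of oligodendrocytes and OPCs were apart for 2, beside 20.8%, and those of oligodendrocytes and astrocytes for 1, beside 12.7%. With TMM scaling these ranges moved both ways. Atf4 then overlapped between OPCs (lowest 117 CPM) and astrocytes (highest 123), and Dnajb1 between oligodendrocytes (highest 74.7) and microglia (lowest 67.0). Hspa8 overlapped between oligodendrocytes and astrocytes, and Atf4 and Hsp90b1 between oligodendrocytes and OPCs. Hsp90aa1 and Hspa1b came apart between oligodendrocytes and OPCs, Dnajb1 and Hsp90b1 between OPCs and microglia, and Hspa8 between OPCs and astrocytes.

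Scaling mattered for the comparisons with oligodendrocytes. Without composition factors, scaling by library size alone moved the median of all genes by -1.01 log2 between oligodendrocytes and OPCs, and by -0.89 and -0.63 against microglia and astrocytes. The higher side then held 6.77% of calls between oligodendrocytes and OPCs, against 38.6% with TMM, 29.3% against 48.9% with microglia and 24.6% against 51.6% with astrocytes. Hsp90aa1, Hspa8 and Dnajb1 then lay below OPCs (-0.11, -0.64 and -0.69, with Hspa8 and Dnajb1 called) and Hsp90aa1 below astrocytes (-0.23), whereas Hspa1a and Hspa1b stayed above OPCs. Between OPCs and astrocytes the share went from 59.8% to 79.2%, or 74.0% with library sizes without mitochondrial genes, and between OPCs and microglia from 55.6% to 69.3% with the latter. With library sizes without mitochondrial genes, Hsp90aa1 and Hsp90b1 lost their calls between OPCs and microglia (log2 differences -0.15 and -0.22), and the median of all genes moved by 0.49.

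Microglial RNA was present in the other preparations and its levels stood beside these results. The 10 microglia markers (Cx3cr1, P2ry12, Tmem119 and others) summed to 11862 to 14505 CPM in microglia. In oligodendrocytes they summed to 210.5 to 1086 CPM, in OPCs to 299 to 1396 CPM and in astrocytes to 91.8 to 384 CPM, and none of the 10 was at 0 throughout a group. By the median marker, the libraries held 1.40% to 8.12%, 2.17% to 10.5% and 0.565% to 3.04% of the microglial level. That share of the microglial Hspa5 level would equal 33.7% to 117% of the Hspa5 found in an oligodendrocyte library (median 64.6%), 5.05% to 51.3% in OPCs (median 21.9%) and 3.55% to 17.1% in astrocytes (median 6.33%). For Atf4 the medians were 46.9% in oligodendrocytes, 17.3% in OPCs and 6.92% in astrocytes. Its part in these levels was not tested. The microglia libraries, which were taken with an antibody to CD45, were also read for markers of other CD45 cells. The 6 border macrophage markers (Mrc1, Cd163 and others) summed to 425 to 961 CPM there and to at most 127 CPM in the other cell types. Of the lymphocyte genes, Ighm had 281 to 449 CPM in control and 298 to 382 CPM in Rag2-/- microglia, while Cd3e reached at most 3.63 CPM in control microglia and was at 0 in all Rag2-/- microglia libraries. The part of the border macrophage genes in the differences of the members from microglia was not tested.

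Genes that respond to cell isolation also stood higher in microglia. The summed level of 12 immediate early genes such as Fos, Jun and Egr1, none of them a member, was 5743 to 10610 CPM in microglia, 2480 to 3720 in OPCs, 1905 to 2953 in astrocytes and 704 to 1662 in oligodendrocytes. Its part in the level of the members was not tested.

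Lists of 30 genes each, which hold none of the members, showed how far the rest of each pathway went the same way. Of 30 ER folding and unfolded protein response genes, 23 were higher and 3 lower in microglia than in OPCs, 19 and 3 against astrocytes, and 23 and 2 against oligodendrocytes. Of all genes, 30.8% were higher and 38.7% lower in microglia than in OPCs, 33.5% and 36.5% against astrocytes, and 34.8% and 33.2% against oligodendrocytes. The median log2 difference from microglia was -0.95, -0.88 and -1.15, where the medians of all genes are those given above. Herpud1, which links BiP to degradation at the ER membrane, had medians of 616 CPM in microglia, 45.2 in OPCs, 30.7 in astrocytes and 14.8 in oligodendrocytes. Edem1, which draws misfolded glycoproteins into degradation, had 548 CPM in microglia and 36.1, 22.7 and 21.9 CPM in these cell types. Ero1b, an oxidase of disulfide formation, was 2.99-fold to 6.00-fold higher in microglia.

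Of the 3 sensors, Atf6 and Ern1 were higher in microglia than in each other cell type. Atf6 was 2.01-fold to 3.15-fold and Ern1 2.17-fold to 3.79-fold higher. Eif2ak3, which encodes PERK, was 1.65-fold higher in OPCs than in microglia, and the log2 differences of astrocytes (-0.42) and oligodendrocytes (0.39) from microglia did not pass. Dnajb9, a BiP cofactor, was higher in microglia than in OPCs (1.51-fold) and oligodendrocytes (2.21-fold), and the log2 difference of astrocytes from microglia (-0.05) did not pass.

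Of 30 genes of the integrated stress response, 16 were higher and 6 lower in microglia than in OPCs, 17 and 6 against astrocytes and 19 and 8 against oligodendrocytes, where the shares of all genes are those just given. The medians from microglia were -0.50, -0.80 and -0.88. Atf3, a factor induced with Ddit3 and also an early response gene, stood out with a microglial minimum of 855 CPM, against medians of 42.0 CPM in OPCs, 17.6 in astrocytes and 14.4 in oligodendrocytes. Ppp1r15a, which encodes GADD34 and restores translation, had 201 to 255 CPM in microglia and medians of 44.9, 40.9 and 11 CPM in OPCs, astrocytes and oligodendrocytes. Trib3 and Chac1, targets of ATF4 and CHOP, had microglial medians of 1.63 and 4.64 CPM, and Chac1 reached 15.97 CPM in an oligodendrocyte library, where its median was 0.185 CPM. Vldlr, a lipoprotein receptor on the list, went the other way, at 149 CPM in OPCs, 73.5 in oligodendrocytes and 49.2 in astrocytes against 1.74 in microglia.

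The third list held 30 further heat shock and chaperone genes, most of them cytosolic, with Hspa9, Hspd1 and Hspe1 of mitochondria and Serpinh1 of the ER among them. In microglia 13 were higher and 9 lower than in OPCs, 14 and 9 than in astrocytes and 12 and 7 than in oligodendrocytes, beside the same shares of all genes, with medians from microglia of -0.15, -0.28 and -0.06. Hsph1, an HSP110 and a classical target of HSF1, was lowest in microglia, by 3.81-fold, 1.69-fold and 4.74-fold against OPCs, astrocytes and oligodendrocytes. Bag3, another HSF1 target, was highest there, by 5.47-fold, 2.82-fold and 7.44-fold, and Hsf1 itself by 1.47-fold, 1.53-fold and 1.59-fold. Cryab, a small heat shock protein known from oligodendrocytes and astrocytes, had medians of 573 CPM in oligodendrocytes, 249 in astrocytes and 92.9 in OPCs against 3.90 in microglia. Hspb8 and Serpinh1, a small heat shock protein and the collagen chaperone of the ER, were highest in astrocytes, at medians of 43.1 and 27.5 CPM, with less than 1 CPM in microglia by median.

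**Figure D3:**
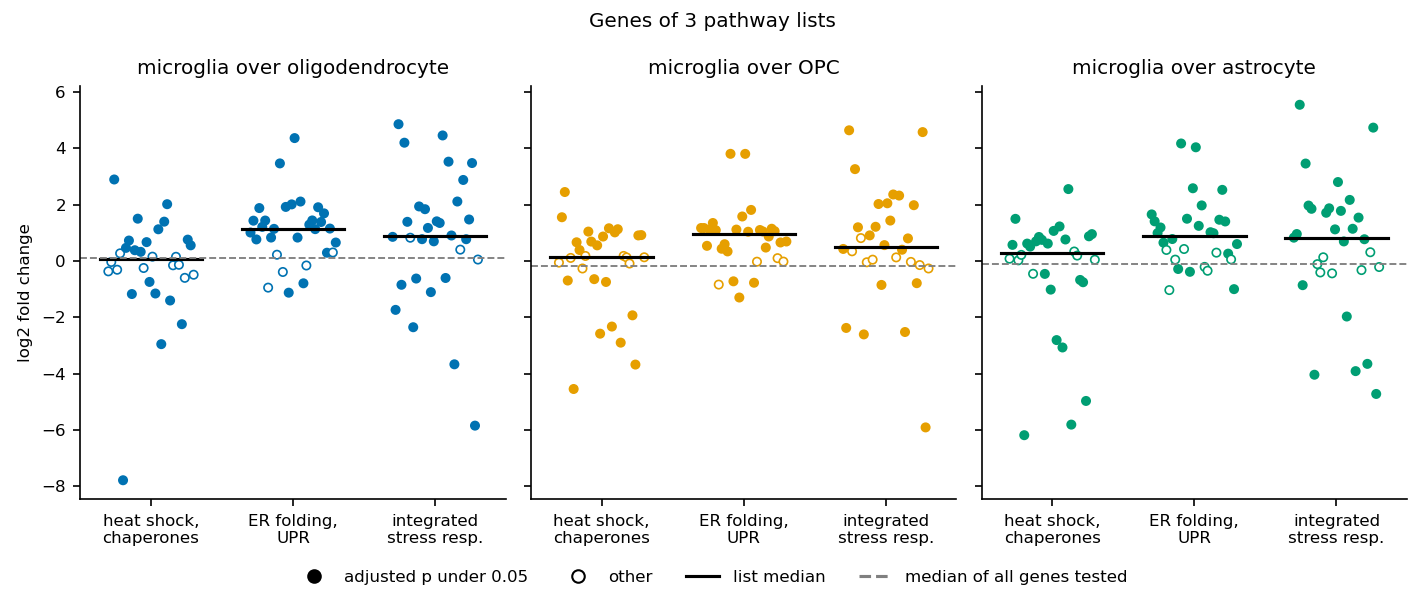
Log2 difference of microglia from each other cell type for the genes of 3 lists of 30, where positive values are higher in microglia. Filled points were called, black bars are list medians and dashed lines the median of all genes tested; the median of the ER folding list lies above the dashed line in all 3 panels, about 1 above 0.

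The second question was whether the absence of lymphocytes went with a change in these genes. A separate fit was made for every cell type, with terms for sex and for genotype. In oligodendrocytes 0 of 10 members were called, where 0 of 13802 genes were (0%, 467 at an unadjusted p under 0.05, and 13 by DESeq2). In OPCs 0 of 10 were called, where 0.00592% of 16882 genes were (1 gene, 679 at an unadjusted p under 0.05, and 3 by DESeq2). In astrocytes 0 of 10 were called beside 0.00679% of 14725 genes, and in microglia 0 of 10 beside 0.00667% of 15003. By DESeq2 no member was called in any cell type either. On simulated counts the oligodendrocyte fit recovered 0 of 100 genes changed 2-fold and 26 of 100 changed 4-fold. The lack of calls there therefore cannot exclude changes of that size. In the other cell types 40 to 55 of 100 genes changed 2-fold were recovered. At an unadjusted p under 0.05 there was 1 of 10 members in OPCs and 0 of 10 in each other cell type. The CPM ranges of the genotypes overlapped for all 10 members in every cell type, while they were apart for 1.97% of all genes tested in oligodendrocytes, 0.113% in microglia, 0.129% in astrocytes and 0.385% in OPCs.

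The inducible HSP70 genes, Hspa1a and Hspa1b, are given by library. In control oligodendrocytes Hspa1a had 33.5, 48.5, 3.11 and 11.4 CPM in pairs 1, 3, 5 and 6, and in Rag2-/- oligodendrocytes of the same pairs 45.9, 24.1, 9.39 and 23.5 CPM. The Rag2-/- library was the higher of its pair in pairs 1, 5 and 6 and the lower in pair 3. The log2 difference of 0.90 had an interval of -0.47 to 2.27, so these libraries could show only a change of several fold. Over the alternatives the difference ran from 0.21, without the control library of pair 5, to 1.49, without the Rag2-/- library of pair 3, and it was 0.34 with the littermate pair as a block and 0.24 with no sex term. In OPCs Hspa1a had 5.36, 11.7 and 16.8 CPM as the lowest, median and highest of 6 control libraries, and 30.9, 9.11, 9.63, 21.2 and 12.98 CPM in the Rag2-/- libraries of pairs 1, 2, 3, 4 and 6. Pairs 1 and 4 stood above all controls there and the other 3 among them, and the log2 difference was 0.69 (interval -0.02 to 1.40). The 10 astrocyte markers summed to 3030 to 8392 CPM in Rag2-/- OPCs and 3119 to 3958 CPM in control OPCs. The part of astrocyte RNA in this difference was not tested. Hspa1b in control oligodendrocytes had 10.2, 9.79, 2.22 and 1.84 CPM and in Rag2-/- oligodendrocytes 6.83, 6.75, 6.23 and 4.70 CPM. The Rag2-/- libraries lay between the control libraries.

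Dnajb1 in OPCs was the only member with an unadjusted p under 0.05 for genotype. It had 44.4, 53.5 and 65.2 CPM as the lowest, median and highest of the controls, and 52.2, 35.1, 38.8, 22.3 and 44.5 CPM in Rag2-/- OPCs of pairs 1, 2, 3, 4 and 6. Their littermate controls had 65.2, 44.4, 55.04, 56.1 and 46.2 CPM. The Rag2-/- library was the lower in all 5 pairs, and 3 of the 5 lay below every control. The log2 difference was -0.40 (interval -0.78 to -0.03, edgeR unadjusted p = 0.034, adjusted p = 1.0). In the other cell types its log2 difference was 0.01, 0.26 and -0.20 in oligodendrocytes, astrocytes and microglia. The 10 astrocyte markers summed to 3119, 3476 and 3958 CPM as the lowest, median and highest of the control OPC libraries. In Rag2-/- OPCs they summed to 3030, 4604 and 8392 CPM. The 8 OPC markers had medians of 7667 CPM in control and 7108 CPM in Rag2-/- OPCs. The part of astrocyte RNA in the difference of Dnajb1 was not tested.

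The ER chaperones overlapped between genotypes in each cell type. Hspa5 in control oligodendrocytes had 247, 383, 89.8 and 61.6 CPM in pairs 1, 3, 5 and 6, and in Rag2-/- oligodendrocytes 273, 350.2, 123 and 104 CPM. Both mice of pairs 1 and 3 stood high and both of pairs 5 and 6 low, whatever the genotype. The median-marker share of microglia was 2.84% and 3.19% in pair 1, 8.12% and 6.74% in pair 3, 3.58% and 3.32% in pair 5 and 1.40% and 2.40% in pair 6, control first. In OPCs Hspa5 had 470.0, 602 and 1025 CPM as the lowest, median and highest of the controls, and 1264, 471, 601, 359 and 524 CPM in the Rag2-/- libraries. Pair 1 gave the highest library of both genotypes. The log2 difference of Hspa5 by genotype was 0.44 (interval -0.33 to 1.20) in oligodendrocytes, 0.08 (-0.38 to 0.53) in OPCs, -0.06 (-0.25 to 0.14) in astrocytes and -0.09 (-0.35 to 0.16) in microglia. Over the alternatives the value in oligodendrocytes ran from 0.18 to 0.68.

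Hsp90b1 had 165, 197, 117 and 70.4 CPM in control and 155, 245, 108 and 77.2 CPM in Rag2-/- oligodendrocytes of pairs 1, 3, 5 and 6. The order of the pairs was the same in both genotypes. In OPCs it had 320.0, 335 and 555 CPM as lowest, median and highest of the controls and 541, 389, 389, 274 and 266 CPM in Rag2-/- libraries. In astrocytes the Rag2-/- library of pair 6 was the lowest for both ER chaperones, at 336 CPM of Hspa5 and 188 CPM of Hsp90b1, where its littermate had 468 and 268 CPM. Mitochondrial genes took 45.1% of the counts in that library and 33.4% in its littermate, a share that lowers CPM. The log2 differences of Hsp90b1 lay between -0.15 and 0.17 in the 4 cell types.

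Atf4, Ddit3 and Xbp1 did not separate the genotypes either. Atf4 had 62.6, 87.9, 51.2 and 44.8 CPM in control and 63.9, 63.6, 32.6 and 37.3 CPM in Rag2-/- oligodendrocytes. Xbp1 had 24.9, 43.03, 23.2 and 4.60 CPM in control and 15.8, 20.6, 30.3 and 12.2 CPM in Rag2-/- oligodendrocytes. Ddit3 had 10.1, 16.9, 8.77 and 2.68 CPM and 13.3, 7.63, 9.39 and 2.86 CPM. The genotypes overlapped in each gene, and both mice of pair 6 were lowest for Ddit3. In astrocytes Xbp1 had 24.2, 25.7 and 28.4 CPM as lowest, median and highest of the controls and 19.6, 30.1 and 40.0 CPM in Rag2-/- libraries, with a log2 difference of 0.30 (interval -0.02 to 0.62).

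In microglia all 10 log2 differences were below 0, from -0.26 for Hspa1a (interval -0.57 to 0.05) to -0.02 for Xbp1 (-0.26 to 0.22), and Atf4 had -0.05 (-0.25 to 0.16). The members share libraries and their signs are not independent. For Hspa8 and Hsp90aa1 the log2 difference lay between -0.10 and 0.08 in all 4 cell types. A test of whether the genotype effect differed among cell types called 0 of 10 members, with a lowest adjusted p of 0.83, beside 0.248% of 21368 genes. No gene of the 3 further lists that passed the filter was called by genotype within a cell type. Eif2ak2, which encodes the kinase PKR and is also induced by interferon, was called in the test across cell types (edgeR adjusted p = 0.044), with log2 differences of 2.30 in oligodendrocytes, -0.34 in microglia, 0.08 in astrocytes and -0.20 in OPCs, and medians of 2.43 CPM in oligodendrocytes and 23.5, 27.9 and 13.4 CPM in microglia, astrocytes and OPCs.

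**Figure D4:**
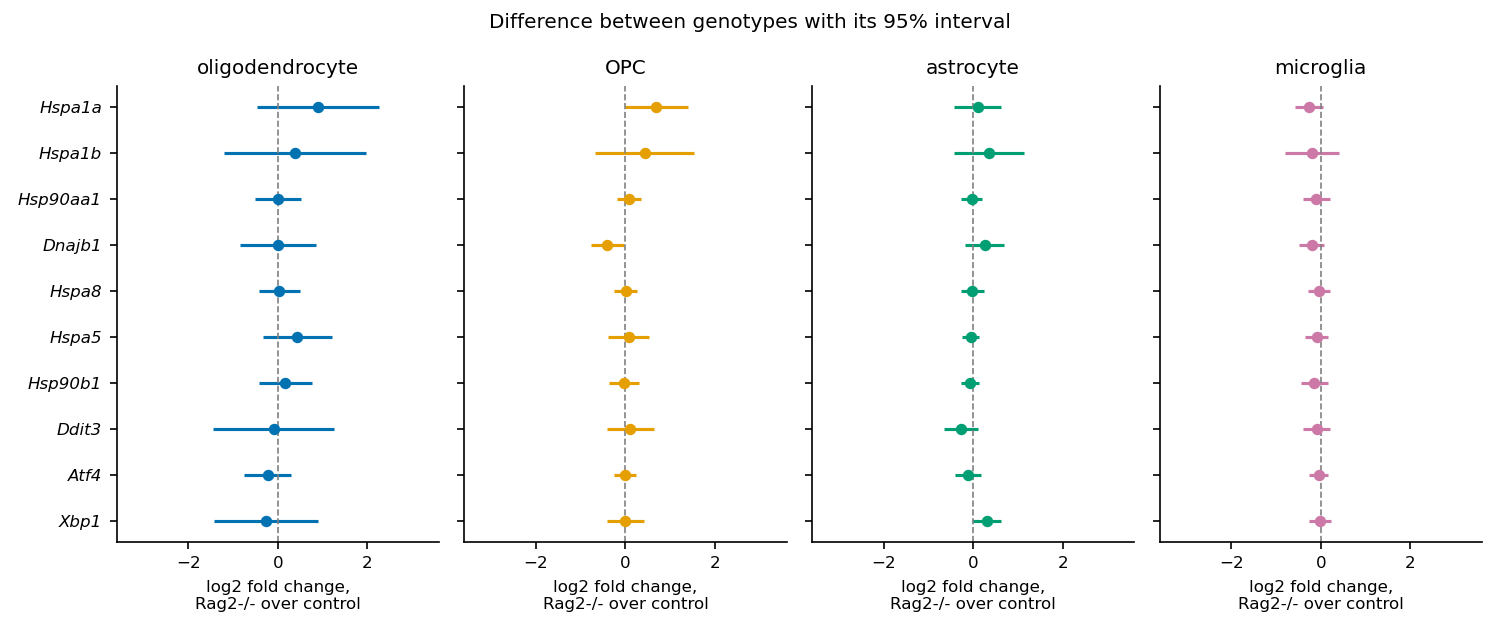
Log2 difference of Rag2-/- from control libraries for the 10 genes in each cell type, from the edgeR fit with sex as a term. Points are estimates and bars 95% intervals; nearly all intervals span 0, that of Dnajb1 in OPCs ends just below 0 before adjustment, and oligodendrocytes have the widest intervals.

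Sex, the other term of the fit, called 0 of 10 members in each cell type, beside 0.0467% of genes in microglia, 0.0407% in astrocytes, 0.0296% in OPCs and 0.0362% in oligodendrocytes. DESeq2 also called none of them. The 8 oligodendrocyte libraries comprised 5 male and 3 female mice. There the log2 difference of females from males was -1.07 for Hspa5 (interval -1.89 to -0.25, edgeR unadjusted p = 0.015, adjusted p = 0.51), -1.53 for Hspa1a (-2.98 to -0.08, adjusted p = 0.59) and -0.84 for Dnajb1 (-1.75 to 0.06). The value of Hspa1a ran from -2.28, without the Rag2-/- library of pair 6, to -0.74, without the control library of pair 5. Without the filter on low counts, Hspa5 was called (-1.11, adjusted p = 0.018). The 3 female libraries came from pairs 5 and 6, whose male member had the lowest Hspa5 of all 8 at 61.6 CPM, so sex and pair can hardly be told apart here. In the other cell types the sex difference of Hspa5 was -0.06 in microglia, -0.09 in astrocytes and -0.46 (-0.94 to 0.02) in OPCs. In microglia Hspa8 had -0.29 (-0.55 to -0.03, unadjusted p = 0.029, edgeR adjusted p = 1.0).

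The third question was whether members of the same response rose and fell together between mice of a cell type. Members were tested as 4 pairs in each of 4 cell types, 16 relations in all, with correlations of log2(CPM + 1) and permutation p-values adjusted over the 16. The permutations treat libraries as exchangeable, although littermates were alike in some genes, so these p-values can be too small. The ER chaperones Hspa5 and Hsp90b1 varied together in microglia (n = 12, Pearson r = 0.74, permutation p = 0.0060, adjusted 0.032; Spearman rho = 0.87, permutation p = 0.00042, adjusted 0.0067), and without the 2 libraries farthest from the Hspa5 median r was 0.79. The call was lost with genotype means subtracted (r = 0.71, adjusted p = 0.068) and without the control library of pair 2 or 5 or the Rag2-/- library of pair 2 or 3 (r = 0.69 to 0.73). In astrocytes they gave r = 0.82 (permutation p = 0.0018, adjusted 0.015) and rho = 0.72 (p = 0.011, adjusted 0.056), but r was 0.50 without the 2 farthest libraries, so the relation rested largely on those. It also missed the threshold without the Rag2-/- library of pair 6 (r = 0.63), with CPM free of mitochondrial genes (r = 0.61) and with genotype means subtracted (r = 0.75). In OPCs r was 0.70 (permutation p = 0.016, adjusted 0.063) and 0.36 without the 2 farthest, and it passed without the control library of pair 5 (r = 0.85). In oligodendrocytes the test over all 8 libraries passed (exact permutation adjusted p = 0.015), also with genotype means subtracted. The libraries of pairs 1 and 3 formed a cluster there apart from those of pairs 5 and 6, so no pooled r is given, and the relation could not be tested within clusters of 4.

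Hspa1a and Hspa1b, with nearly the same promoter and coding sequence, had r of 0.58 in OPCs, 0.54 in astrocytes and 0.64 in microglia (permutation p = 0.061, 0.069 and 0.030, adjusted 0.11, 0.11 and 0.081), and r fell to 0.30, 0.31 and -0.12 without the 2 farthest libraries. In the 8 oligodendrocyte libraries r was 0.78 (exact permutation p = 0.025, adjusted 0.080) and 0.89 without the 2 farthest. Pairs 1 and 3 stood above pairs 5 and 6 for both genes there, though by little at their nearest. Every r of this relation in oligodendrocytes therefore rests partly on that split. Hspa1b and Dnajb1 had r of -0.05, 0.27 and 0.38 in OPCs, astrocytes and microglia, and Atf4 and Ddit3 had 0.45, 0.19 and 0.60, with adjusted permutation p-values of 0.097 to 0.90. In oligodendrocytes pairs 1 and 3 also stood apart from pairs 5 and 6 for Dnajb1 and Atf4, so no pooled r is given for these relations. Over all 8 libraries they did not pass (exact permutation adjusted p = 0.11 and 0.13), and both passed without the Rag2-/- library of pair 5, as did Hspa1a and Hspa1b (r = 0.85). In microglia Hspa1a and Hspa1b passed without the Rag2-/- library of pair 5 (r = 0.86), and Atf4 and Ddit3 without the control library of pair 1 (r = 0.78).

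**Figure D5:**
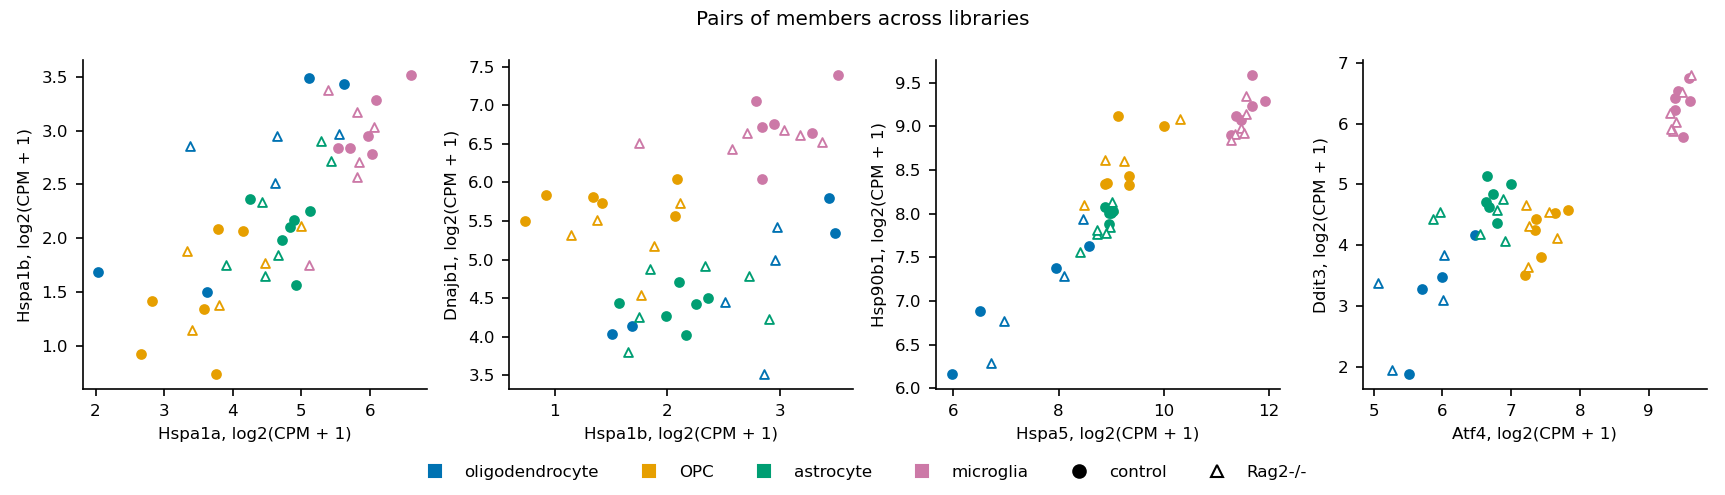
The 4 pairs of members across the 43 libraries, each axis as log2(CPM + 1). Colours are cell types, filled circles control and open triangles Rag2-/- libraries; microglia form a group of their own in the panels of Hspa5 with Hsp90b1 and of Atf4 with Ddit3, and the oligodendrocyte libraries split into a high and a low group for Hspa5.

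The genes most like Hspa5 over the 43 libraries, after the mean of each cell type and genotype was subtracted and among 11197 genes, were Hspa9 (r = 0.87), Ctsl (0.85), Ankrd28 (0.84), Mrpl15 (0.84) and Hsp90b1 (0.84). Among those most like Dnajb1 were Rtca (0.83), Zfyve27 (0.82), Snrnp200 (0.80) and Gm7964 (0.80). Those most like Ddit3 were Prrc1 (0.78), Oxa1l (0.77), Echs1 (0.76), Acat2 (0.75) and Acin1 (0.74). Hspa1b did not reach the mean of 10 CPM required in any cell type. These values are descriptions, since the 43 libraries share depth and mitochondrial share as well as mice. Across cell types of the same mouse, Hspa8 deviated together most among the members, with a mean r of 0.53 over 6 pairs of cell types, against 0.0087 for the median gene, and where r ranged from 0.09 between astrocytes and microglia over 12 mice to 0.85 between oligodendrocytes and microglia over 8 mice. For Hspa5 this mean was 0.22, for Xbp1 0.23 and for Ddit3 -0.24.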

How the data were processed

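RNA from immunopanned cortical glia of Rag2-/- and control littermates was amplified to cDNA and sequenced as read pairs. The authors aligned the pairs with STAR 2.7.8a to GRCm39 and counted them with HTSeq on the genes of the Ensembl annotation, and the deposited values are whole-number counts per gene and library with no normalization. The strand and overlap settings of HTSeq are not given in the sources used here. Read pairs counted on no gene, 33.5% to 52.0% of a library, were left out of library sizes. Depending on the HTSeq settings, copied stretches can lower the counts of some members, and antisense genes can add to them.

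Groups came from the sample labels. CPM was computed over all gene counts, and genes with at least 10 counts in enough libraries and 15 in total (filterByExpr) were tested with edgeR 4.0.16 in R 4.3.3 (quasi-likelihood test, two-sided, TMM, Benjamini-Hochberg over all genes, called at 0.05, 95% intervals). The study fitted each cell type with sex and genotype in DESeq2, and the same terms were used here. It reported more genes changed by genotype in oligodendrocytes than edgeR or DESeq2 called here. Correlations used a pseudocount of 1 and 100000 permutations, or all 40320 pairings for 8 libraries. DESeq2 1.42.0, limma 3.58.1, Python 3.11.15, numpy 2.4.6, pandas 2.3.3, scipy 1.17.1 and matplotlib 3.10.9 were also used, and the genotype fits and the comparison of OPCs with microglia were checked on simulated counts. The labels number littermate pairs: deviations from group means correlated within pairs by 0.141, 0.194, 0.207 and 0.129 on average in oligodendrocytes, OPCs, astrocytes and microglia, against -0.0465, -0.0382, -0.04 and -0.0262 between pairs. Alternatives were DESeq2's size factors and test, library size alone or without mitochondrial genes, no filter, and the littermate pair or mouse as a block. Others were no sex term, controls alone, only the pairs whose control was Rag2+/-, another pseudocount, genotype means subtracted and each library or pair left out. Named are the 10 members, list genes called by genotype or sex, the 3 widest-ranging genes of each list, and preset regulators. The members and lists were chosen with earlier results of these data known. Some results are not reported here.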

Additional observations from a re-analysis of the deposited data

Results flagged for a closer look

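In 3 of 80 groups of a member, cell type and genotype, 1 library stood farther from its group than Dixon's 95% limit, where chance gives about 1 in 20 groups. Hspa5 in Rag2-/- OPCs was highest in pair 1, at 1264 CPM where the next library had 601 and the lowest 359, so that the gap took 0.732 of the range. Hspa5 in control OPCs was highest in pair 1 too, at 1025 CPM where the next had 644, with a gap of 0.686 of the range. Hsp90b1 in control astrocytes was lowest in pair 1, at 235 CPM, with a gap of 0.640 of the range. Mitochondrial genes took 35.4% of the counts of that library. With TMM scaling this group ran from 243 to 265 CPM, so the value of 235 CPM depended on the scaling. The first 2 of the 3 are littermates, and no cause was tested.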

How the results depend on the processing

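Over all alternatives, no member was called by genotype in any cell type, and by sex only Hspa5 in oligodendrocytes without the filter (1 member). Of the members' values under alternatives in the cell type comparisons, 716 stayed called or stayed uncalled (13 of the 120 that stayed uncalled changed sign), 36 lost a call, 22 gained one and 6 turned sign with a call on 1 side or both. These 6 were, with library size alone, Hsp90aa1 (-0.11), Dnajb1 (-0.69, uncalled with TMM) and Hspa8 (-0.64) between oligodendrocytes and OPCs, Hsp90aa1 (-0.23) against astrocytes, and Hspa1b (-0.19) and Hsp90aa1 (-0.59) against microglia. Members called ranged, with libraries left out, over 7 to 9 (OPCs and astrocytes), 6 to 9 (oligodendrocytes and OPCs), 7 to 9 (oligodendrocytes and microglia), 6 to 7 (oligodendrocytes and astrocytes), 8 to 9 (astrocytes and microglia) and 10 to 10 (OPCs and microglia).

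Counts over all genes moved more. Between oligodendrocytes and OPCs 8703 genes became 14634 with library size alone and 5351 with controls alone, and between OPCs and astrocytes 9094 became 5924 with controls alone. By genotype, DESeq2 called 13 in oligodendrocytes and 3 in OPCs, and no filter gave 9 in microglia, 30 in astrocytes, 90 in OPCs and 14 in oligodendrocytes. In microglia, 1 to 2 were called with a library left out. The test of genotype across cell types called 53 genes, 34 with the littermate pair as a block, 1011 with no filter and 13 to 68 with a pair left out. By sex, DESeq2 called 146 in oligodendrocytes, 17 in astrocytes and 11 in microglia, no filter gave 99, 118 and 25 there and 72 in OPCs, and 3 to 5 were called in oligodendrocytes with a library left out. The block on pair or mouse changed the call of no member other than Hspa1b between oligodendrocytes and microglia. Of 16 relations between members 3 passed, 1 with genotype means subtracted and 2 to 6 with a library left out. The causes were not tested.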
